A study of Mus musculus with 14 samples.

Results

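The genes described are 7 homeobox genes of the mouse, *Msx1*, *Msx2*, *Dlx1*, *Dlx2*, *Dlx3*, *Dlx5* and *Dlx6*, out of the 24454 genes of a table of read counts. They were chosen by name, through their Entrez identifiers, and not by their levels. The table holds 14 RNA-seq libraries of cells that were sorted by FACS from mouse forelimb buds and fall into 5 populations. At E10.5 these were S9-JAG1+ limb bud mesenchymal progenitors (LMPs; 3 libraries), S9-Pαhi LMPs (3), S9+Pαhi osteo-chondrogenic progenitors (OCPs; 3) and S9-SCA-1+ cells (2 libraries, with the replicate numbers 2 and 3), and at E11.5 they were S9+Pαhi *Col2a1*+ chondroblasts (3). S9+ marks cells that expressed EGFP from the *Sox9* IRES-EGFP allele, which all embryos carried, S9- marks cells that did not, and Pαhi marks high PDGFRα on the cell surface. All cells were sorted as viable and negative for CD31, Ter119, CD45, EpCam, Gr1 and CD11b, markers of endothelium, blood and epithelium. S9-JAG1+ cells were also negative for SCA-1, S9-SCA-1+ cells for JAG1, and S9-Pαhi cells for both. Each library was made from the pooled forelimb buds of several embryos. The labels give chondroblasts the same gate as OCPs at a later stage, so that population and stage cannot be told apart in any comparison with chondroblasts.

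MSX and DLX proteins are related transcription factors that bind DNA through a homeodomain. *Msx1* and *Msx2* are targets of BMP signaling in many embryonic tissues, and in the limb bud they are expressed in the mesenchyme below the ectoderm and in the ectodermal ridge at the distal tip. The *Dlx* genes lie in pairs of neighbouring genes that share regulatory regions, and in the limb they are known from the ridge, where *Dlx5* and *Dlx6* are needed for limb and digit development, and from developing cartilage and bone, where *Dlx3*, *Dlx5* and *Dlx6* act in the differentiation of chondrocytes and osteoblasts.

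The libraries held between 20316583 and 29162751 counted reads. Levels are given as CPM, the counts divided by library sizes that edgeR scaled by its TMM method, and a count of 3, below which detection is uncertain, lay at 0.101 to 0.149 CPM. *Sox9* was at 437.0 ± 7.03 CPM in OCPs and 535.5 ± 111 in chondroblasts, against 62.3 ± 4.50 in S9-Pαhi LMPs, 34.8 ± 2.46 in S9-JAG1+ LMPs and 11.0 ± 5.12 in S9-SCA-1+ cells (mean ± SD). *Jag1* was highest in S9-JAG1+ LMPs (296.2 ± 67.9 CPM), and *Ly6a*, which encodes SCA-1, in S9-SCA-1+ cells (3.23 ± 0.183 CPM). The S9-SCA-1+ libraries stood apart from all others by 1495.8 to 1500.3 CPM, summed over a list of myogenic genes, against at most 10.7 CPM elsewhere. Their replicate 3 held 792.2 CPM of blood genes, most of it from the haemoglobin gene *Hba-a1*, against 25.98 CPM in replicate 2. The 2 libraries differed little in *Msx1*, and each call of a member in these cells that was lost when 1 of them was left out is named below. In bulk samples such as these, fewer cells that express a gene and less of its RNA in each cell cannot be told apart.

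The homeobox, the stretch of 60 codons that encodes the homeodomain, is the part that the members share. It is shown for *Msx2*, *Dlx5* and *Dlx6*. The sequences are from GENCODE transcripts of GRCm38, in the sense of the gene, with the codons of the DNA-contacting helix (codons 42 to 58, counted from the start of the homeobox) in capitals.
Msx2: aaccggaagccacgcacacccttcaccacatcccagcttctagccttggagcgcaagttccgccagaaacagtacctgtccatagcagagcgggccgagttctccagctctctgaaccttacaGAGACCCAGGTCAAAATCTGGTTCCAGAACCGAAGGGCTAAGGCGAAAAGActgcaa
Dlx5: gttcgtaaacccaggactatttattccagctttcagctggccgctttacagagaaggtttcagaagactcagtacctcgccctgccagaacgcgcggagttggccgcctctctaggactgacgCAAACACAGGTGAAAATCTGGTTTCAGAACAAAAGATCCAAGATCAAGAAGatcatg
Dlx6: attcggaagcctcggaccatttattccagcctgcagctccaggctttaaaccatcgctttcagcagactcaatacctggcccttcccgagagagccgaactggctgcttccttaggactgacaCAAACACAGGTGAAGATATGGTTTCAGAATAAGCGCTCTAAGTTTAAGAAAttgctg
*Dlx5* and *Dlx6* shared 132 of 180 bases and 51 of 60 encoded residues, and 16 of the 17 residues of the helix. *Msx2* and *Dlx5* shared 106 bases and 34 residues, and 12 residues of the helix. The longest run of identical bases at the same position was 14 for *Dlx5* and *Dlx6*, 11 for *Msx2* and *Dlx5* and 8 for *Msx2* and *Dlx6*. The reads are 50 bases long, and no window of 50 bases was found in the transcripts of more than 1 member. Members can therefore be told apart by an exact read. Against GENCODE transcripts on both strands, *Msx2* shared 0.465% of its 50-base windows with other genes, *Dlx6* 6.09% and *Dlx1* 5.19%. None were shared by *Msx1*, *Dlx2*, *Dlx3* and *Dlx5*. The value of *Msx1* leaves out *Msx1os*, which is absent by name from GENCODE and overlaps 58.8% of the exon bases of *Msx1*.

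RefSeq start sites were at hand for 4 of the 7 members, *Msx1*, *Msx2*, *Dlx1* and *Dlx2*. The 250 bases before the start of the 2 *Msx* genes are shown, since both genes were abundant in S9-Pαhi LMPs and their levels in S9-JAG1+ LMPs differed widely. Both are read 5′ to 3′ on the minus strand of GRCm38.p6, at chr5:37824586-37824835 and chr13:53472781-53473030, and matches to the motifs searched are in capitals.
Msx1: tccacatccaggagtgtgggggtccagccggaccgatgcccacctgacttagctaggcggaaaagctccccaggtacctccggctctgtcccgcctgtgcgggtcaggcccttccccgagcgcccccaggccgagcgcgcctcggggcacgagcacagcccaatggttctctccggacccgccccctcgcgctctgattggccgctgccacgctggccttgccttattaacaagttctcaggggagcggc
Msx2: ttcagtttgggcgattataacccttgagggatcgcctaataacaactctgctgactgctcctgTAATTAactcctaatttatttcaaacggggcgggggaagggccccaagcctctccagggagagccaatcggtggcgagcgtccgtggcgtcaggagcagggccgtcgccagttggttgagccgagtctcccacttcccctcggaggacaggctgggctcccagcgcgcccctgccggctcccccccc
The windows were searched on both strands for GGCGCC, a GC-rich element of the kind that SMAD proteins bind, and for TAATTA, the core that many homeodomains bind. TAATTA was found once before *Msx2* and in 4.84% of 32851 promoter windows of this length. GGCGCC was not found before either gene, and 9.59% of all windows held it. Before *Dlx2* there was 1 match to GGCGCC and none to TAATTA. The *Dlx1* window, at chr2:71529195-71529444 on the plus strand, held neither. It lies inside the span of *Dlx1* given below, so it is not the sequence before the first base of that span. G and C made up 68.0% of the *Msx1* window and 61.6% of the *Msx2* window, against a median of 52.4% over all.

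The members differed widely in abundance. Per kilobase of transcript, the mean level of *Msx1* was above that of 95.9% of the genes of the table and that of *Msx2* above that of 76.9%. For *Dlx5* this share was 61.5%, for *Dlx6* 50.5%, for *Dlx2* 40.8%, for *Dlx3* 39.6% and for *Dlx1* 36.1%. With *Dlx2*, *Dlx3* and *Dlx1*, all libraries together held 158, 142 and 73 counts, so that these 3 genes rest on few reads. The filter on low counts was passed by 6 of the 7 members, all but *Dlx1*, and by 15125 genes in all. Each of the 6 differed among the 5 populations in a joint test (adjusted p from 6.98e-10 for *Msx1* to 0.00395 for *Dlx2*, quasi-likelihood test of edgeR, adjusted over all tested genes by Benjamini-Hochberg), as did 74.8% of all tested genes. For pairs of populations, a call needed both an adjusted p no larger than 0.1 and a log2 fold change of 1.2 or more in either direction.

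*Msx1* (Entrez 17701; GRCm38 chr5:37820491-37824585, minus strand) was the most abundant member in all 14 libraries, and separated LMPs from the *Sox9*-positive populations. It had 226.2, 265.4 and 286.8 CPM in S9-JAG1+ LMPs and 289.6, 267.8 and 294.7 CPM in S9-Pαhi LMPs. OCPs had 30.2, 19.6 and 18.9 CPM and chondroblasts 22.0, 30.8 and 28.1 CPM. The 2 libraries of S9-SCA-1+ cells lay between, at 78.8 and 80.3 CPM. The ranges of both LMP populations overlapped each other, as did those of OCPs and chondroblasts, whereas no library of one of these pairs reached the other. *Msx1* was lower in OCPs than in S9-Pαhi LMPs by a log2 fold change of -3.63 (12.4-fold, standard error 0.18, adjusted p = 4.03e-08) and lower than in S9-JAG1+ LMPs by -3.50 (11.3-fold, standard error 0.18). Chondroblasts were lower than S9-Pαhi LMPs by -3.40 (10.54-fold, standard error 0.17). In S9-SCA-1+ cells *Msx1* was 3.47-fold higher than in OCPs and 3.57-fold lower than in S9-Pαhi LMPs. Between S9-Pαhi and S9-JAG1+ LMPs the log2 difference was 0.13, with a 95% interval from -0.21 to 0.47 (adjusted p = 0.610), and between chondroblasts and OCPs it was 0.23, with an interval from -0.12 to 0.59 (adjusted p = 0.319).

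*Msx1* has an antisense gene, *Msx1os*, which covers 58.8% of its exon bases on the opposite strand. The sources used here do not say whether the counting regarded strand. The counts of *Msx1os* came to between 56.6% and 66.0% of those of *Msx1* in every library, and its log2 CPM followed that of *Msx1* more closely than that of any other gene (Pearson's r = 0.9995 over 14 libraries). Reads of both genes cannot be told apart in these counts, and the values of *Msx1* may hold reads of both.

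*Msx2* (Entrez 17702; chr13:53466881-53472780, minus strand) had its highest level in S9-Pαhi LMPs alone. There it had 94.2, 98.0 and 77.2 CPM, and in S9-JAG1+ LMPs 18.1, 24.8 and 20.2 CPM. OCPs had 9.25, 10.6 and 13.5 CPM, chondroblasts 21.5, 20.4 and 12.9 CPM and S9-SCA-1+ cells 7.97 and 6.77 CPM. All 3 libraries of S9-Pαhi LMPs lay above the other 11 libraries, while the range of chondroblasts overlapped those of OCPs and S9-JAG1+ LMPs. Compared with S9-JAG1+ LMPs, *Msx2* was higher in S9-Pαhi LMPs by a log2 fold change of 2.09 (4.27-fold, standard error 0.19, adjusted p = 3.08e-06). Compared with S9-Pαhi LMPs it was 8.08-fold lower in OCPs (log2 fold change -3.01, standard error 0.20), 4.91-fold lower in chondroblasts and 12.2-fold lower in S9-SCA-1+ cells. Neighbours in the order of levels were closer: the log2 difference was -0.20 between chondroblasts and S9-JAG1+ LMPs (adjusted p = 0.366), 0.72 between chondroblasts and OCPs (adjusted p = 0.0148) and -0.59 between S9-SCA-1+ cells and OCPs (adjusted p = 0.0535), all under the fold change limit. The call of *Msx2* as lower in S9-SCA-1+ cells than in chondroblasts (log2 fold change -1.31) lay near that limit and was lost, at -1.16 at the smallest, without chondroblast replicate 1 or 2 or without S9-SCA-1+ replicate 3.

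**Figure D1:**
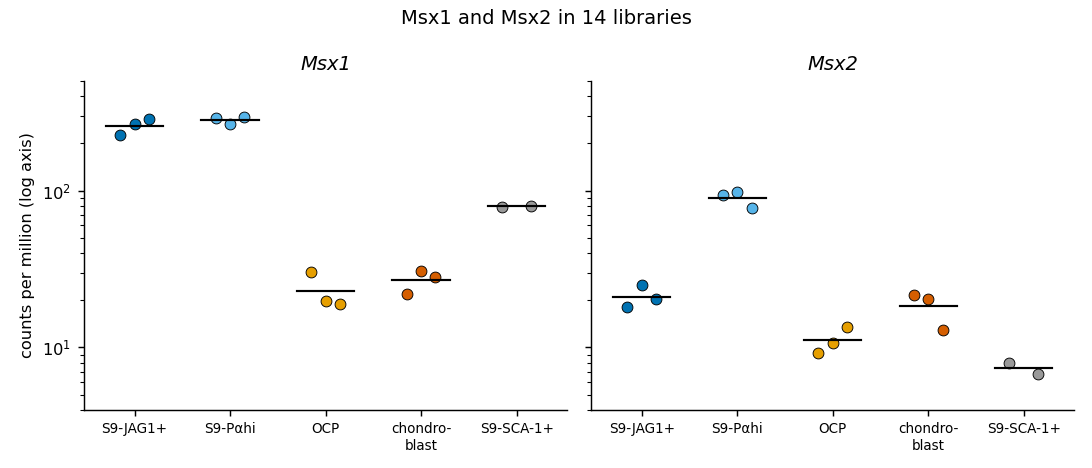
*Msx1* and *Msx2* in CPM on a log axis, with 1 point for each library and a line at the mean of each population. *Msx1* was similar in both LMP populations (226.2 to 294.7 CPM), whereas *Msx2* was high in S9-Pαhi LMPs (77.2 to 98.0 CPM) and at or below 24.8 CPM in every other library.

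The ratio of both genes within a library, with counts divided by transcript length, does not depend on library size. The counts of *Msx1* may hold reads of *Msx1os*, so the ratios cannot be stated for *Msx1* RNA alone. *Msx1* was 12.0 to 15.9 times as abundant as *Msx2* in S9-JAG1+ LMPs and 11.1 to 13.3 times in S9-SCA-1+ cells. In S9-Pαhi LMPs the ratio was 3.06 to 4.27, in OCPs 1.57 to 3.66 and in chondroblasts 1.15 to 2.44. The S9-JAG1+ and S9-Pαhi libraries did not overlap, with a mean ratio 3.90-fold lower in S9-Pαhi LMPs, and the ranges of OCPs overlapped those of S9-Pαhi LMPs and of chondroblasts. An exact two-sided permutation test gave p = 0.10 for S9-JAG1+ against S9-Pαhi LMPs, the smallest p that 3 against 3 libraries allow (adjusted p = 0.18 over 9 such tests, exact), so this design cannot reach p = 0.05.

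**Figure D2:**
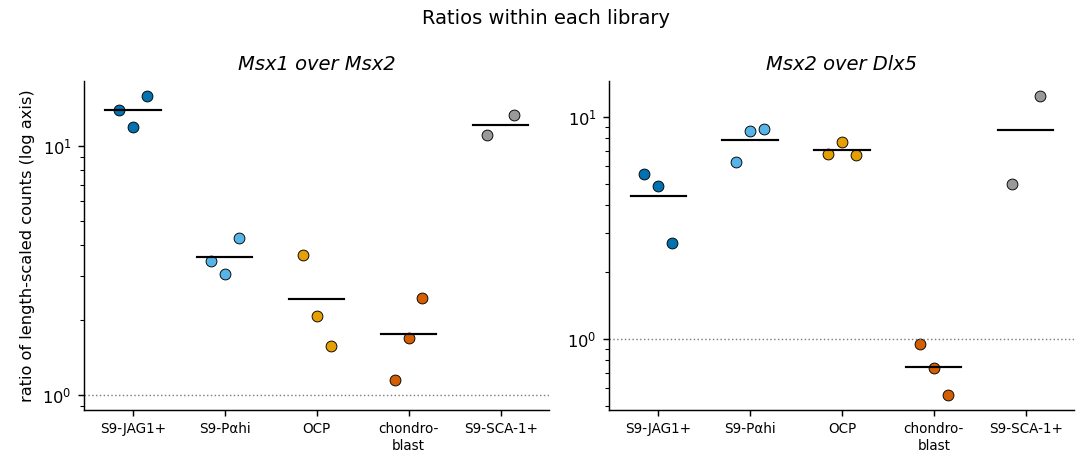
Ratios of length-scaled counts within each library, *Msx1* over *Msx2* on the left and *Msx2* over *Dlx5* on the right, on log axes with a dotted line at a ratio of 1. The counts of *Msx1*, which may hold reads of *Msx1os*, exceeded those of *Msx2* per length in all 14 libraries. *Msx2* fell below *Dlx5* in the 3 chondroblast libraries.

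*Dlx5* (Entrez 13395; chr6:6877801-6882068, minus strand), a regulator of osteoblast and chondrocyte differentiation, was highest in chondroblasts and lowest in OCPs and S9-SCA-1+ cells. Chondroblasts had 14.83, 18.03 and 14.997 CPM and OCPs 0.892, 0.903 and 1.30 CPM. Among the LMPs, S9-Pαhi libraries had 9.88, 7.41 and 5.73 CPM and S9-JAG1+ libraries 2.14, 3.31 and 4.87 CPM, and S9-SCA-1+ cells had 1.05 and 0.356 CPM. None of these ranges overlapped, except that of S9-SCA-1+ cells with that of OCPs. *Dlx5* was 15.2-fold higher in chondroblasts than in OCPs (log2 fold change 3.93, standard error 0.35, adjusted p = 4.39e-06) and 7.35-fold lower in OCPs than in S9-Pαhi LMPs (-2.88, standard error 0.35, adjusted p = 9.94e-05). It was 2.07-fold higher in chondroblasts than in S9-Pαhi LMPs (adjusted p = 0.00798) and 2.23-fold higher in S9-Pαhi than in S9-JAG1+ LMPs (adjusted p = 0.0142), both under the fold change limit.

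*Dlx6* (Entrez 13396; chr6:6863334-6867970, plus strand) lies beside *Dlx5* and is transcribed toward it. It showed the same order of the 5 populations at lower levels: 2.32, 3.08 and 3.38 CPM in chondroblasts, 1.14, 0.978 and 0.946 CPM in S9-Pαhi LMPs, 0.385, 0.587 and 0.476 CPM in S9-JAG1+ LMPs, 0.284, 0.380 and 0.434 CPM in OCPs, and 0.175 and 0.214 CPM in S9-SCA-1+ cells. Chondroblasts lay above all other libraries and S9-Pαhi LMPs above the remaining ones, while S9-JAG1+ LMPs and OCPs overlapped. *Dlx6* was 7.87-fold higher in chondroblasts than in OCPs (log2 fold change 2.98, standard error 0.28, adjusted p = 7.42e-06) and 2.76-fold lower in OCPs than in S9-Pαhi LMPs (-1.46, standard error 0.30). Unlike that of *Dlx5*, the difference of *Dlx6* between chondroblasts and S9-Pαhi LMPs passed the fold change limit, at 1.51 (standard error 0.25, adjusted p = 0.000285), but the difference between the genes was not tested. Per length, *Dlx5* was 3.37 to 4.85 times as abundant as *Dlx6* in chondroblasts, 4.22 to 7.79 times in S9-JAG1+ LMPs, 4.60 to 6.59 times in S9-Pαhi LMPs and 1.80 to 2.39 times in OCPs. The OCP libraries did not overlap those of S9-Pαhi LMPs or of chondroblasts (exact p = 0.10 for each, the smallest possible, and adjusted p = 0.18). Their ratios rest on few reads, with 22, 19 and 36 counts of *Dlx5* and 7, 8 and 12 of *Dlx6*. For S9-SCA-1+ cells, also with few reads, the ratios were 4.56 and 1.27, on either side of the OCP range.

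*Dlx3* (Entrez 13393; chr11:95120117-95125296, plus strand), known from skin and bone, was detected in few reads. Chondroblasts had 0.874, 0.992 and 0.824 CPM, from 26, 29 and 21 counts, above every other library. In the remaining populations the values were 0.488, 0.564 and 0.0996 CPM for S9-Pαhi LMPs, 0.243, 0.143 and 0.434 CPM for OCPs, 0.0856, 0.168 and 0.159 CPM for S9-JAG1+ LMPs, and 0.0699 and 0.142 CPM for S9-SCA-1+ cells, many of them near the level of 3 counts. *Dlx3* was higher in chondroblasts than in OCPs by a log2 fold change of 1.66 (3.15-fold, standard error 0.48, adjusted p = 0.0219) and than in S9-JAG1+ LMPs by 2.66 (6.33-fold, standard error 0.55). The call of *Dlx3* as higher in S9-Pαhi than in S9-JAG1+ LMPs (log2 fold change 1.49, adjusted p = 0.0955) rests on ranges that overlap, and was lost in 14 of the 21 alternatives that could test it. Its call as lower in S9-SCA-1+ cells than in S9-Pαhi LMPs (-1.86, adjusted p = 0.0679) was lost without S9-Pαhi replicate 1 or 2, without either S9-SCA-1+ replicate and at an adjusted p limit of 0.05.

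*Dlx2* (Entrez 13392, chr2:71543408-71546754, minus strand), best known from the forebrain and the branchial arches, followed the *Msx* genes more closely than the other *Dlx* genes. Pearson's r of log2 CPM was 0.84 with *Msx2* and 0.70 with *Msx1* over 14 libraries. Without S9-SCA-1+ cells these values were 0.82 and 0.80. S9-Pαhi LMPs had 1.02, 0.752 and 0.747 CPM and S9-JAG1+ LMPs 0.428, 0.754 and 0.674 CPM, which overlap. Chondroblasts had 0.403, 0.479 and 0.118 CPM, OCPs 0.122, 0.285 and 0.217 CPM and S9-SCA-1+ cells 0.105 and 0.214 CPM. *Dlx2* was 4.02-fold lower in OCPs than in S9-Pαhi LMPs (log2 fold change -2.01, standard error 0.49, adjusted p = 0.0152) and 2.97-fold lower than in S9-JAG1+ LMPs (-1.57, standard error 0.50, adjusted p = 0.0220). The call as lower in chondroblasts than in S9-Pαhi LMPs (-1.30) was lost without chondroblast replicate 3 (-0.97) or S9-Pαhi replicate 1 (-1.13), and the call as lower in S9-SCA-1+ cells than in S9-JAG1+ LMPs (-1.93) without S9-SCA-1+ replicate 2 (adjusted p = 0.206).

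*Dlx1* (Entrez 13390; chr2:71528113-71533981, plus strand), the neighbour of *Dlx2*, was too low to be tested. It had 2, 8 and 6 counts in S9-JAG1+ LMPs, 5, 6 and 2 in S9-Pαhi LMPs, 7, 15 and 1 in OCPs, 9, 7 and 4 in chondroblasts, and 0 and 1 in S9-SCA-1+ cells. The summed level was 0.221 CPM in S9-JAG1+ LMPs (exact 95% Poisson interval 0.126 to 0.359), 0.182 in S9-Pαhi LMPs (0.0971 to 0.312), 0.314 in OCPs (0.199 to 0.471) and 0.237 in chondroblasts (0.145 to 0.366). These intervals, which cover counting error only, overlap. In S9-SCA-1+ cells it was 0.0176 CPM, from 1 read in both libraries together, with an upper bound of 0.0983.

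**Figure D3:**
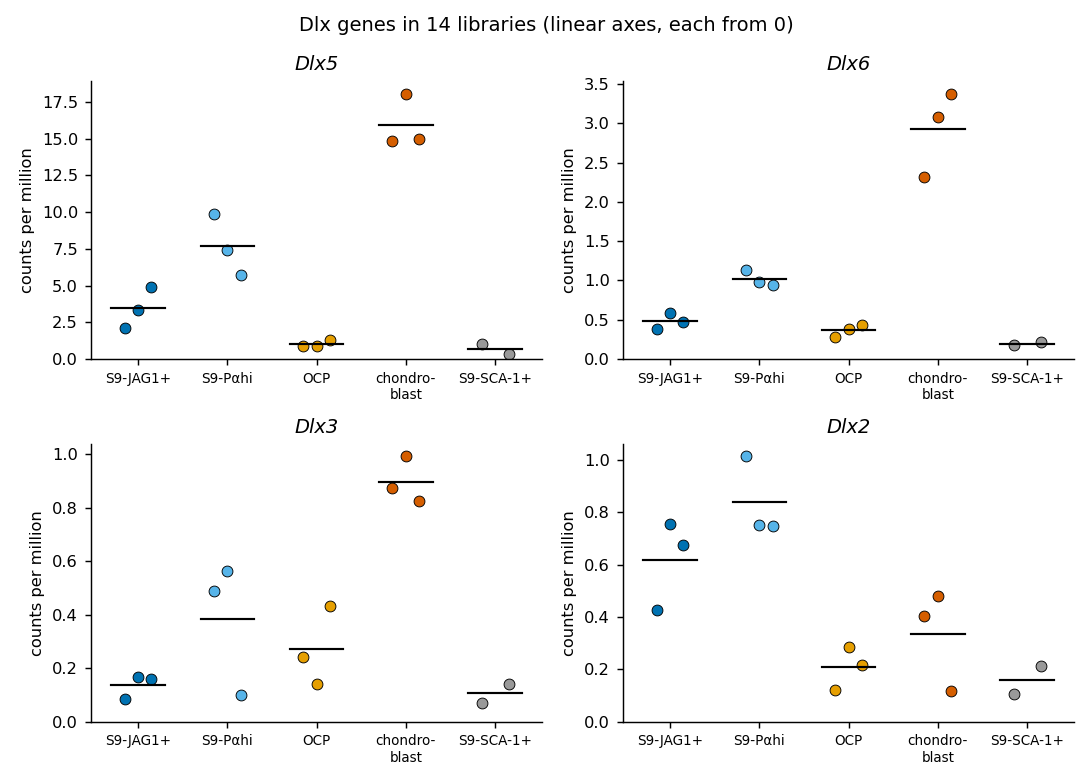
*Dlx5*, *Dlx6*, *Dlx3* and *Dlx2* in CPM on linear axes that start at 0, with 1 point for each library and a line at the mean of each population. *Dlx5*, *Dlx6* and *Dlx3* were highest in the 3 chondroblast libraries, whereas *Dlx2* was highest in S9-Pαhi replicate 1 (1.02 CPM).

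Between S9-JAG1+ and S9-Pαhi LMPs, the LMP populations sorted as EGFP-negative, 2 of the 6 tested members were called, *Msx2* and *Dlx3*, both higher in S9-Pαhi LMPs, where 4.42% of all tested genes were called higher. *Dlx5* and *Dlx6* were also higher there, at log2 fold changes of 1.15 (standard error 0.30) and 1.07 (standard error 0.29) under the limit, and *Msx1* and *Dlx2* had differences of 0.13 and 0.44 that did not pass the test. Between S9-Pαhi LMPs and OCPs, 5 members were called, all lower in OCPs, while 1.36% of all tested genes were called lower. The exception was *Dlx3*, with a log2 difference of -0.49 and a 95% interval from -1.63 to 0.66. Between OCPs and chondroblasts, 3 members were called, *Dlx5*, *Dlx6* and *Dlx3*, all higher in chondroblasts, while 6.60% of all tested genes were called higher. These shares count only the direction in which the called members lay, which was set after their calls were known. In either direction, 7.00%, 4.84% and 7.77% of all tested genes were called in these pairs, in the order given.

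Against S9-JAG1+ LMPs, *Msx1*, *Dlx2* and *Dlx5* were called lower in OCPs (3 of 6 members, and 3.46% of all tested genes were called lower). In chondroblasts *Msx1* was called lower and *Dlx3*, *Dlx5* and *Dlx6* higher than in S9-JAG1+ LMPs (4 of 6, and 19.4% of all). Against S9-Pαhi LMPs, chondroblasts were lower in *Msx1*, *Msx2* and *Dlx2* and higher in *Dlx6* (4 of 6, and 12.7% of all). S9-SCA-1+ cells were lower than S9-Pαhi LMPs in all 6 tested members (5.58% of all tested genes were called lower) and lower than S9-JAG1+ LMPs in 5, all but *Dlx3* (4.91% of all). Genes of limb mesenchyme at large were lower in the same pairs: of a list of 6 (*Prrx1*, *Prrx2*, *Tbx5*, *Pdgfra*, *Twist1* and *Lmx1b*), 6 were called lower than in S9-Pαhi LMPs (median log2 fold change -2.98, against 0.00638 over all genes) and 5, all but *Prrx1*, lower than in S9-JAG1+ LMPs (median -2.43, against 0.00581 over all genes). Their sum was 355.8 to 474.8 CPM in S9-SCA-1+ cells and 1444.8 to 3238.5 CPM in the other populations, and the part of this difference in the levels of the members was not tested. *Dlx6* was one of the 5 members called lower than in S9-JAG1+ LMPs, at -1.29, and its call was lost without S9-JAG1+ replicate 2 (-1.14) or S9-SCA-1+ replicate 2 (-1.16). Compared with OCPs only *Msx1* was called in S9-SCA-1+ cells, as higher (1 of 6, and 4.73% of all were called higher). Compared with chondroblasts *Msx1* was higher and *Msx2*, *Dlx3*, *Dlx5* and *Dlx6* were lower in S9-SCA-1+ cells (5 of 6, and 19.4% of all tested genes). All of these pairs draw on the same 14 libraries and are not independent of each other.

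**Figure D4:**
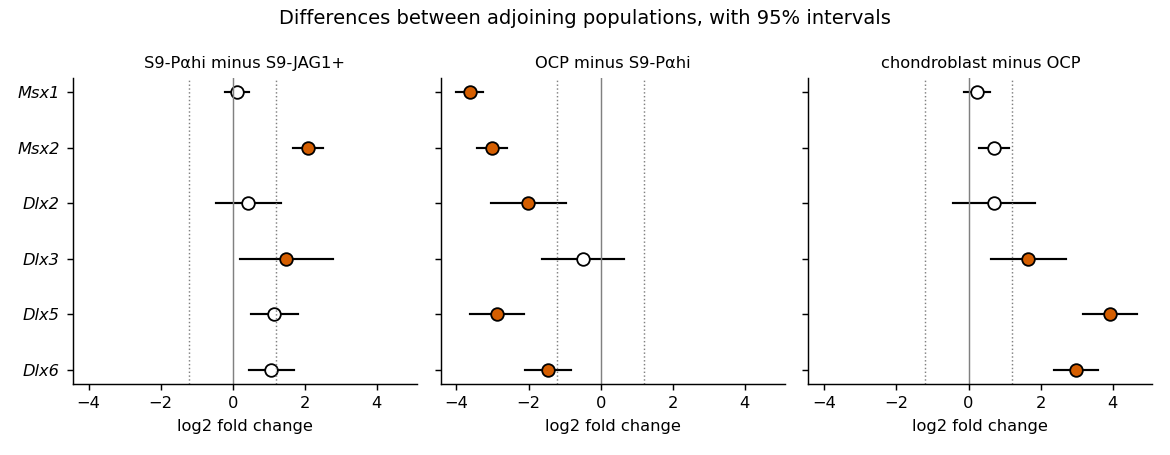
Log2 fold changes of the 6 tested members in 3 pairs of populations, with 95% intervals as lines, filled points for called genes and dotted lines at the fold change limit of 1.2 in either direction. *Msx1* and *Msx2* were lower in OCPs than in S9-Pαhi LMPs (-3.63 and -3.01), and *Dlx5* and *Dlx6* were lower there and higher in chondroblasts than in OCPs (3.93 and 2.98).

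The remaining members of the families were at or near absence. *Msx3* and *Dlx4* had at most 3 counts in any library and could not be tested, and *Dlx1as*, the antisense gene of *Dlx1*, had at most 8. *Dlx6os1* and *Dlx6os2*, RNAs transcribed against *Dlx6*, were highest in chondroblasts, at 1.09 ± 0.127 and 0.547 ± 0.251 CPM, and were followed by S9-Pαhi LMPs, at 0.368 ± 0.165 and 0.207 ± 0.0696 CPM. Both were higher in chondroblasts than in OCPs, by log2 fold changes of 3.67 (standard error 0.69, adjusted p = 0.00170) and 2.92 (standard error 0.80, adjusted p = 0.0154), though OCPs had at most 5 and 4 counts in a library, so these sizes depend on how low counts are treated. Their exons share 4.69% of the 2216 GENCODE exon bases of *Dlx6*, those of *Dlx6os2*. The deposited length of *Dlx6* is 1071 bases, and where its reads lie was not examined.

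Of the 10 genes next to the member loci, 8 could be tested. *Stx18* beside *Msx1*, *Sptlc1* beside *Msx2*, *Metap1d* and *Itga6* around *Dlx1* and *Dlx2*, and *Sem1* and *Sdhaf3* around *Dlx6* and *Dlx5* were not called in any of the 10 pairs. *Cytl1*, on the other side of *Msx1*, was at 1.26 CPM in chondroblasts and 0.274 CPM in OCPs and had no count in S9-Pαhi LMPs, where *Msx1* was high, and was called in 7 pairs. *Itga3* beside *Dlx3* was at 2.81 CPM in chondroblasts against 1.06 in S9-JAG1+ and 0.923 in S9-Pαhi LMPs and was called in both pairs. *Drd1* beyond *Msx2* and *Tac4* beyond *Dlx4* were too low to be tested.

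Since *Dlx* genes are also known from the ectoderm and from neural crest, markers of these cells were examined. A list of 23 ectodermal genes came to 32.5 to 37.8 CPM in chondroblasts, where *Dlx3*, *Dlx5* and *Dlx6* were highest, and to 20.1 to 28.0 CPM in OCPs, where *Dlx5* was low. It came to 9.26 to 13.7 CPM in S9-Pαhi LMPs, 13.0 to 22.7 in S9-JAG1+ LMPs and 23.3 to 24.8 in S9-SCA-1+ cells. In chondroblasts 18 of the 23 genes exceeded 3 counts in at least 1 library and *Wnt10a* and *Fgf4* were at 0. *Krt18*, *Epcam*, *En1* and *Fgf9* had the highest levels, at 10.1, 5.83, 4.78 and 4.11 CPM, while the epidermal keratins *Krt14* and *Krt5* were at 0.309 and 0.452 CPM and the ridge gene *Fgf8* at 2.34 CPM. Of 13 tested genes of the list, *En1*, *Fgf8* and *Perp* were called higher in chondroblasts than in OCPs and none was lower. *Sox10*, a marker of neural crest, was at 2.78 CPM in chondroblasts and 2.98 CPM in OCPs, against at most 0.0890 CPM in the other populations, and the list of 6 neural crest and glial genes came to 46.6 to 53.7 CPM in chondroblasts and 26.9 to 33.2 CPM in OCPs. The part of such cells in the levels of the *Dlx* genes was not tested.

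*Msx* and *Dlx* genes are known as targets of BMPs, secreted ligands that signal through receptor kinases and SMAD proteins and are held back by secreted antagonists, so the pathway was followed in the same pairs. Of 9 tested BMP ligand genes, *Gdf5*, *Gdf6* and *Gdf7* were called higher in S9-Pαhi than in S9-JAG1+ LMPs (median log2 fold change of the list 0.24, against -0.00255 over all genes). In OCPs *Bmp2*, *Bmp4*, *Bmp5* and *Gdf6* were lower than in S9-Pαhi LMPs and *Bmp3* was higher (median -0.53, against 0.02 over all genes). In chondroblasts *Bmp2*, *Bmp5*, *Gdf5* and *Gdf6* were higher than in OCPs (median 0.44, against -0.02 over all genes). *Bmp2* had the largest of these changes, from 2.70 CPM in OCPs to 34.8 CPM in chondroblasts (13.0-fold, log2 fold change 3.70, standard error 0.39, adjusted p = 1.63e-05), and *Gdf5*, a gene of joint-forming cartilage, went from 3.92 to 34.6 CPM (8.78-fold).

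Of 10 antagonist genes, *Nbl1* and *Bmper* were higher and *Grem1* lower in S9-Pαhi than in S9-JAG1+ LMPs (median 0.05). *Fst*, *Bmper* and *Chrdl1* were higher in OCPs than in S9-Pαhi LMPs and none was lower (median 0.88), and between OCPs and chondroblasts *Nog*, *Chrd*, *Chrdl1*, *Bmper* and *Nbl1* were higher in chondroblasts and *Smoc1* was lower (median 1.202). *Bmper* was at 0.137 CPM in S9-JAG1+ LMPs, 0.639 in S9-Pαhi LMPs, 6.17 in OCPs and 33.1 in chondroblasts, and its log2 fold change between S9-Pαhi LMPs and OCPs was 3.25 (standard error 0.39, adjusted p = 0.000103). *Fst*, which binds activins and BMPs, changed in the same pair by 2.64 (standard error 0.41, adjusted p = 0.000670). *Grem1*, the antagonist of the posterior limb bud, was at 88.6 CPM in S9-JAG1+ LMPs and 24.5 CPM in S9-Pαhi LMPs. It is named here after its values were seen. In this pair *Msx2* was 4.27-fold higher in S9-Pαhi LMPs, while *Msx1* was not called, at a log2 difference of 0.13. A link of *Grem1* to either gene was not tested.

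Of 10 receptor and SMAD genes, only *Bmpr1b* and *Smad9* were called in these pairs. *Bmpr1b*, a type I receptor, was at 4.60 CPM in S9-JAG1+ LMPs, 18.8 in S9-Pαhi LMPs, 34.6 in OCPs and 84.9 in chondroblasts (log2 fold change 2.03 between the LMPs, standard error 0.16, adjusted p = 7.87e-07). *Smad9*, a receptor-activated SMAD, had the shape of the *Dlx5* levels, with 1.56, 4.58, 0.779 and 6.21 CPM in the same order, though it was at 3.44 CPM in S9-SCA-1+ cells, and was higher in chondroblasts than in OCPs by 2.95 (standard error 0.41, adjusted p = 0.000172). Of 11 further target and feedback genes, *Id2*, *Tbx2* and *Tbx3* were called higher in S9-Pαhi than in S9-JAG1+ LMPs (median 0.37), *Gata6*, *Tbx2* and *Tbx3* lower in OCPs than in S9-Pαhi LMPs (median -0.54), and *Id4* and *Tbx2* higher in chondroblasts than in OCPs (median 0.56). *Tbx2*, a T-box repressor, was lower in OCPs than in S9-Pαhi LMPs by -3.36 (10.3-fold, standard error 0.17, adjusted p = 4.27e-08), and *Tbx3* was higher in S9-Pαhi than in S9-JAG1+ LMPs by 2.43 (5.37-fold, standard error 0.22, adjusted p = 3.26e-06).

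**Figure D5:**
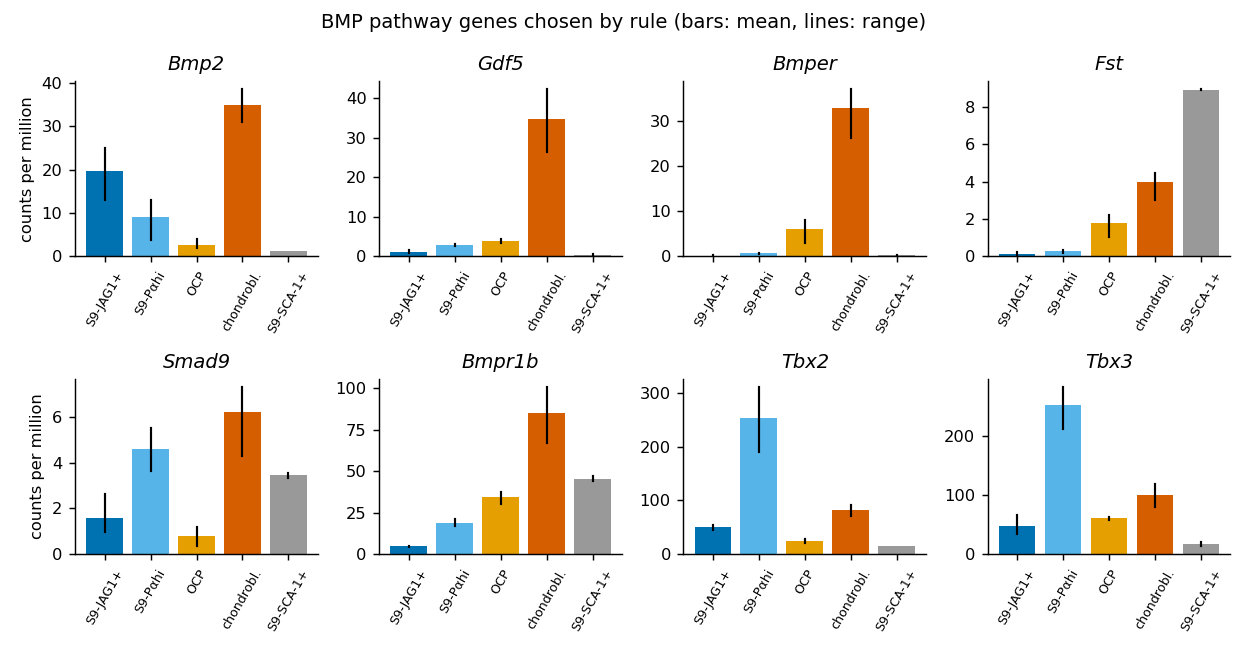
Levels of 8 genes of the BMP pathway in CPM on linear axes from 0, with bars at the mean and lines over the range of the libraries of each population. *Tbx2* and *Tbx3* were highest in S9-Pαhi LMPs, like *Msx2*, *Bmp2*, *Gdf5*, *Bmper*, *Smad9* and *Bmpr1b* were highest in chondroblasts, like *Dlx5* and *Dlx6*, and *Fst* was highest in S9-SCA-1+ cells (8.93 CPM, against 3.97 in chondroblasts).

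Of 10 osteochondrogenic genes, 5 were called higher in OCPs than in S9-Pαhi LMPs (*Sox9*, *Sox5*, *Col2a1*, *Col9a1* and *Matn1*), in the pair in which 5 *Msx* and *Dlx* members were lower, and none was lower (median 1.19, against 0.02 over all genes, of which 3.48% were called higher). Between OCPs and chondroblasts *Acan*, *Matn1*, *Sox6* and *Runx3* were higher and none was lower (median 0.93), and between the LMPs *Runx2* and *Col2a1* were higher and *Runx3* lower in S9-Pαhi LMPs (median -0.02). *Acan*, which encodes the main proteoglycan of cartilage, went from 0.127 to 9.55 CPM (log2 fold change 6.22, standard error 0.68, adjusted p = 2.23e-05), in the pair in which *Dlx5* was 15.2-fold higher. *Matn1*, another cartilage matrix gene, had no count in S9-Pαhi LMPs, 0.125 CPM in OCPs and 3.20 CPM in chondroblasts. *Sp7*, an osteoblast factor that DLX5 is known to regulate, was at 2.12 CPM in OCPs and 4.55 CPM in chondroblasts, a log2 difference of 1.10 (standard error 0.26) under the limit; it too is named after its values were seen.

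Over the 14 libraries, the log2 CPM of *Dlx5* and *Dlx6* had a Pearson's r of 0.93, those of *Msx2* and *Dlx2* of 0.84, those of *Dlx3* and *Dlx6* of 0.83 and those of *Msx1* and *Msx2* of 0.63. These are descriptions over libraries that fall into 5 populations, so that the points of a population are not independent. After *Msx1os*, the genes most like *Msx1* were *Shh*, the signal of the posterior limb bud (r = 0.96), and *Fzd10*, a Wnt receptor (r = 0.95). *Shh*, however, was at 63.6 CPM in S9-JAG1+ and 16.04 CPM in S9-Pαhi LMPs, in which *Msx1* differed little. The genes most like *Msx2* were *Tbx2* (r = 0.95), *Cnr1* (r = 0.92) and *Hdac9* (r = 0.89), and those most like *Dlx2* were *Bmp4* (r = 0.89), *Smad7* (r = 0.86) and *Scmh1* (r = 0.84). For *Dlx5* they included *Cx3cl1* (r = 0.93) and *Bgn* (r = 0.92), for *Dlx6* *Thra* (r = 0.96), *Fgf18* (r = 0.95) and *Bcl11a* (r = 0.94), and for *Dlx3* *Mfhas1* (r = 0.95) and *Chd3* (r = 0.93). For *Dlx1*, with its few reads, *Rundc1*, *Pgbd1* and *Plekha5* came first (r = 0.89, 0.88 and 0.87) and *Rundc1* had mean levels of 17.6 to 24.4 CPM over the populations. The genes named for *Dlx2*, also with few reads, depend on the libraries used. Without S9-SCA-1+ cells *Slc39a8*, *Basp1* and *Ttc7* came first for *Dlx2* (r = 0.91, 0.91 and 0.90). By Spearman's rho over 14 libraries *Bmp4* and *Smad7* stayed first.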

How the data were processed

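The authors sequenced poly(A) RNA as single-end reads, aligned them with STAR to the mouse genome mm10, keeping 1 position for reads with several, and used qCount of QuasR to count reads by whether they begin inside RefSeq mRNA exons. The deposited values are raw counts per gene and library, listed by Entrez identifier, and strand use in counting is not stated in the sources used here. Symbols and gene positions came from RefSeq on GRCm38, the same build, and 24381 of 24454 identifiers were matched; the other 73 held 0.334% of counts. The members and the gene lists were chosen with earlier results of these data known. In each library all counted genes made up its total. Chi-square per degree of freedom between replicates was 8.20 to 81.1, so no library was a copy of another, and the p-values measure the spread between pooled samples.

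Tests were run in R 4.3.3 with edgeR 4.0.16: filterByExpr by population, TMM scaling, 1 quasi-likelihood fit over all 14 libraries (biological coefficient of variation 13.4%), contrasts for 10 pairs and a joint test, with Benjamini-Hochberg adjustment over 15125 genes. The limits of the call take the sizes of the p and fold change limits from the study, whose methods name no adjustment of p, and apply the p limit to adjusted p-values. A standard error is the size of the log2 fold change divided by the square root of F, and intervals are at 95%. Log2 CPM used a prior count of 2. Tested on simulated counts for 15125 genes with 200 changed between S9-JAG1+ and S9-Pαhi LMPs, edgeR recovered 198 with 4 false calls, its joint test, which has no fold change limit, recovered 197 with 26, and DESeq2 1.42.0 recovered 199 with 2. All planted changes were 4-fold, and they were placed only in genes with more reads than *Dlx2* and *Dlx3* had. The simulation therefore does not show how well smaller changes, or changes at the depth of these genes, are recovered. Ratios were compared with exact permutation tests.

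Beside the members, the genes named are all other genes of both families, the nearest annotated genes, for each pathway list the 2 called genes with the largest changes in the pairs of S9-JAG1+ and S9-Pαhi LMPs, S9-Pαhi LMPs and OCPs, and OCPs and chondroblasts, with counts for the rest, and the 3 genes of at least 1 log2 CPM with the highest Pearson's r to each member. Some of these genes and sequences are not reported here. Alternatives were DESeq2 size factors, library totals, 2 other filters, DESeq2, a replicate block, fits of 2 populations, other call limits, and each library left out in turn. GENCODE transcripts of GRCm38 gave the homeobox sequences, and RefSeq on GRCm38.p6 the promoters. Python 3.11.15 with pandas 2.3.3, matplotlib 3.10.9 and Biopython 1.88 was used for sequences and figures.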

Additional observations from a re-analysis of the deposited data

How the results depend on the processing

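Over 23 alternatives, 32 of the 38 called differences of members between 2 populations kept their direction and call wherever they could be tested. Those of *Dlx2* and *Dlx3* among the 32 could be tested under 22 alternatives. The other 6 were lost under at least 1 alternative, and none reversed. Of the differences not called, 8 were gained under at least 1 alternative other than dropping the fold change limit. The joint test called 6 members under its alternatives except the stricter filter. *Dlx2* and *Dlx3* did not pass that filter, and all 4 members tested there were called. Between S9-JAG1+ and S9-Pαhi LMPs the members called fell from 2 to 1 without a filter, with DESeq2, with a replicate block and at an adjusted p of 0.05. They also numbered 1 with a stricter filter and with only both populations in the fit, where *Dlx3* was not tested. They became 4 with no fold change limit, and with single libraries left out they were 1 to 3. Without a fold change limit the genes called in all rose from between 732 and 2941 to between 3042 and 9966 over the 10 pairs, 2.73 to 4.48 times as many. Between S9-SCA-1+ cells and S9-JAG1+ LMPs 3 to 5 members were called with single libraries left out (3 without S9-SCA-1+ replicate 2), and between S9-SCA-1+ cells and OCPs 1 to 2, and 2 without a filter or without a fold change limit. Among differences not called, 3 changed sign, in each case with 1 S9-SCA-1+ library left: *Dlx3* against S9-JAG1+ LMPs (0.0465 without replicate 2, and down to -0.93 under the others), *Dlx2* against OCPs (0.0557 without replicate 2, and down to -0.94) and *Dlx5* against OCPs (0.00948 without replicate 3, and down to -1.54). A lone library is assumed to vary like the other populations. The cause of these changes was not tested. Library totals moved the median of all genes by 0.12, 0.11 and -0.11 (log2) in the pairs of chondroblasts with S9-JAG1+ LMPs, S9-Pαhi LMPs and S9-SCA-1+ cells; *Dlx2* was then not called between chondroblasts and S9-Pαhi LMPs, at -1.19.

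Deviations from the population means were correlated between some libraries of different populations, with equal and with different replicate numbers. The 26 pairs with the same number had correlations from -0.18 to 0.31 (median -0.005), and 4 of them were over 0.1. The 52 pairs with different numbers had -0.31 to 0.41 (median -0.003), and 6 were over 0.1. The largest was between OCP replicate 1 and S9-Pαhi replicate 3. Both were also correlated with S9-JAG1+ replicate 1, at 0.31 and 0.25. Each of these libraries had the highest sum of hindlimb genes in its population, and a link between both observations was not tested. A block on equal numbers does not take up likeness between different numbers. With the replicate block, the call of *Dlx3* between the LMPs was lost (adjusted p = 0.128, log2 fold change 1.49, edgeR) and no other call of a member changed. The genes named as most like a member depend on the measure: with Spearman's rho *Ptpru* came first for *Msx2* and *Bgn* for *Dlx5*, and without S9-SCA-1+ cells *Necab2* came second for *Msx1*. Depth limits *Dlx1*, *Dlx2* and *Dlx3*, with at most 29 counts in a library, and the 2 S9-SCA-1+ libraries limit every comparison with these cells.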
